A study of Mus musculus with 3 samples.

Results

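The genes described here encode the matrix metalloproteinases (Mmp), their tissue inhibitors (Timp), the membrane-anchored disintegrin and metalloproteinases (Adam) and the secreted disintegrin and metalloproteinases with thrombospondin repeats (Adamts, with the related Adamtsl proteins). Membership was set by symbol: every gene whose symbol starts with Mmp, Timp or Adam followed by a digit, or with Adamts, and each was represented by its transcript row with the largest total count. This gave 83 genes of the 29917 named genes in the files, of which 23 were Mmp, 4 Timp, 33 Adam and 23 Adamts or Adamtsl genes. Adamtsl3 had no row and was not analysed here.

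Polyadenylated RNA of isolated brain vessels from male mice aged 3 months was sequenced without strand information in 3 libraries. They were a C57BL6 WT library, a C57BL6-BALB/c WT library and a library from Cx30-/- mice, in which the gap junction protein connexin 30, made by astrocytes, was deleted in every tissue. The sample labels give the Cx30-/- mice a C57BL6 background, whereas the methods of the study give a mixed C57BL6 and BALB/c background for the sequenced animals, so the WT library that matches them in background cannot be told from these sources. The study compared the Cx30-/- vessels with each WT library in order to keep the changes seen against both.

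Each library pooled the vessels of 3 mice, and each group had 1 library. No difference below can therefore be set against a spread between replicates, and the intervals given are 95% exact binomial intervals that cover the sampling of reads only. The deposited counts summed to between 50375426 and 60725557 per library. A read on a shared exon counts there for each transcript, so these sums exceed the number of reads. Gjb6, the gene of connexin 30, was low in the library labelled Cx30-/-, at 100.7 normalized counts, against 2531.4 for C57BL6 WT and 2425.9 for C57BL6-BALB/c WT. The defining markers of vessel cells were present, with summed normalized counts of 95370.9 to 184205.1 for 10 endothelial genes and of 82993.9 to 101908.0 for 10 smooth muscle and pericyte genes. RNA of other brain cells was also present, since 8 neuron genes summed to between 28177.5 and 50130.3 and 7 astrocyte genes to between 35038.3 and 42990.0. Oligodendrocyte genes (6) summed to 51136.2, 45368.1 and 40706.3 in C57BL6 WT, C57BL6-BALB/c WT and Cx30-/-, and choroid plexus genes (6) were uneven, at 146780.0, 57188.9 and 77374.9. In bulk RNA of this kind, fewer cells of a type and less RNA per cell cannot be told apart.

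Mmp, Adam and Adamts proteins belong to the zinc metalloproteases. Mmps cleave collagens and other matrix proteins and act on the vascular basement membrane, Adams mostly shed the outer parts of membrane proteins such as growth factors and receptors, and Adamts enzymes cut proteoglycans, procollagens and von Willebrand factor. Timps bind the active site and block it. In brain vessels these enzymes and inhibitors are best known for the turnover of the basal lamina that lies between endothelial cells, mural cells and astrocyte endfeet.

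The feature that unites the proteases is the zinc-binding site, 3 histidines spaced as HExxHxxxxxH in the protein. Its codons were looked for in the coding sequence of each gene's transcript (GENCODE M21), and the sites of the genes on which the results below turn are shown as DNA, read from 5′ to 3′, with the histidine codons in capitals.
Mmp8: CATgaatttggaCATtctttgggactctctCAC
Mmp9: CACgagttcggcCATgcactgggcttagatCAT
Adam10: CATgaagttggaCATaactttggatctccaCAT
Adam15: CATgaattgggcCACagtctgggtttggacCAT
Adam17: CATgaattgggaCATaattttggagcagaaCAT
Adamts1: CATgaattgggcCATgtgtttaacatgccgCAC
Adamts3: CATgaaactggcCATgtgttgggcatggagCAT
Adamts14: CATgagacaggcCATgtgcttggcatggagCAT
Adamts18: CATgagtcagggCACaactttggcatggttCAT
The site was found in 23 of 23 Mmp genes, in 20 of 33 Adam genes and in 19 of 23 Adamts genes. None of the 4 Timp genes, which are inhibitors, had it. Among the genes that reached 50 normalized counts in any library, Adam11, Adam22, Adam23, Adam5 and the 4 Adamtsl genes lacked it, and Adam11, Adam22 and Adam23 are known as adhesion and receptor proteins. The glycine codon at the eighth residue of the site was replaced in 6 Adamts genes, namely Adamts1, Adamts4, Adamts8, Adamts9, Adamts15 and Adamts20. Adamts3 and Adamts14, which both remove the amino-terminal propeptide of procollagens, shared 29 of the 33 bases, the most of any pair shown, followed by Adam10 and Adam17 with 26.

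Of the 83 genes, 51 reached 50 normalized counts in 1 library or more: 13 Mmp, 4 Timp, 14 Adam and 20 Adamts or Adamtsl genes. A further 19 had reads but stayed under 50, and 13 had no read in any library. The 13 were Mmp1a, Mmp1b, Mmp7, Mmp10 and Mmp20, and Adam6a, Adam20, Adam24, Adam25, Adam26a, Adam26b, Adam34 and Adam39. At the other end, 16 genes had at least 1000 normalized counts. Summed over all members, the level was close in the 3 libraries, with 87948.2 normalized counts in C57BL6 WT, 92371.5 in C57BL6-BALB/c WT and 89381.3 in Cx30-/-. Timps made up 30.6%, 30.8% and 31.0% of these sums in the same order of libraries. The Adam share was 39.0%, 42.4% and 34.9%, the Adamts share 20.3%, 17.9% and 25.6%, and the Mmp share 10.1%, 8.9% and 8.5%.

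Per kilobase of transcript, the scale on which genes can be compared with each other, Timp3 stood first in all 3 libraries with 4075.9, 4554.0 and 4492.1 normalized counts per kb in C57BL6 WT, C57BL6-BALB/c WT and Cx30-/-. Adam15, an Adam of endothelial and smooth muscle cells, followed with 2847.4, 2872.9 and 2928.5. Timp2 had 1960.0, 1756.9 and 1661.7. Among the Adamts genes Adamts10, which acts on fibrillin microfibrils, had 1027.4, 1129.9 and 1297.6, and Adamts1 had 1161.8, 514.0 and 1671.3. The best expressed Mmp was Mmp17, a membrane-type enzyme, at 812.1, 922.5 and 601.6. Timp3 and Adam15 were therefore first and second in every library. Timp2 came next in both WT libraries, but in Cx30-/- Adamts1 lay just above it. Adamts1 also lay above Adamts10 in C57BL6 WT and Cx30-/- and below it in C57BL6-BALB/c WT.

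**Figure D1:**
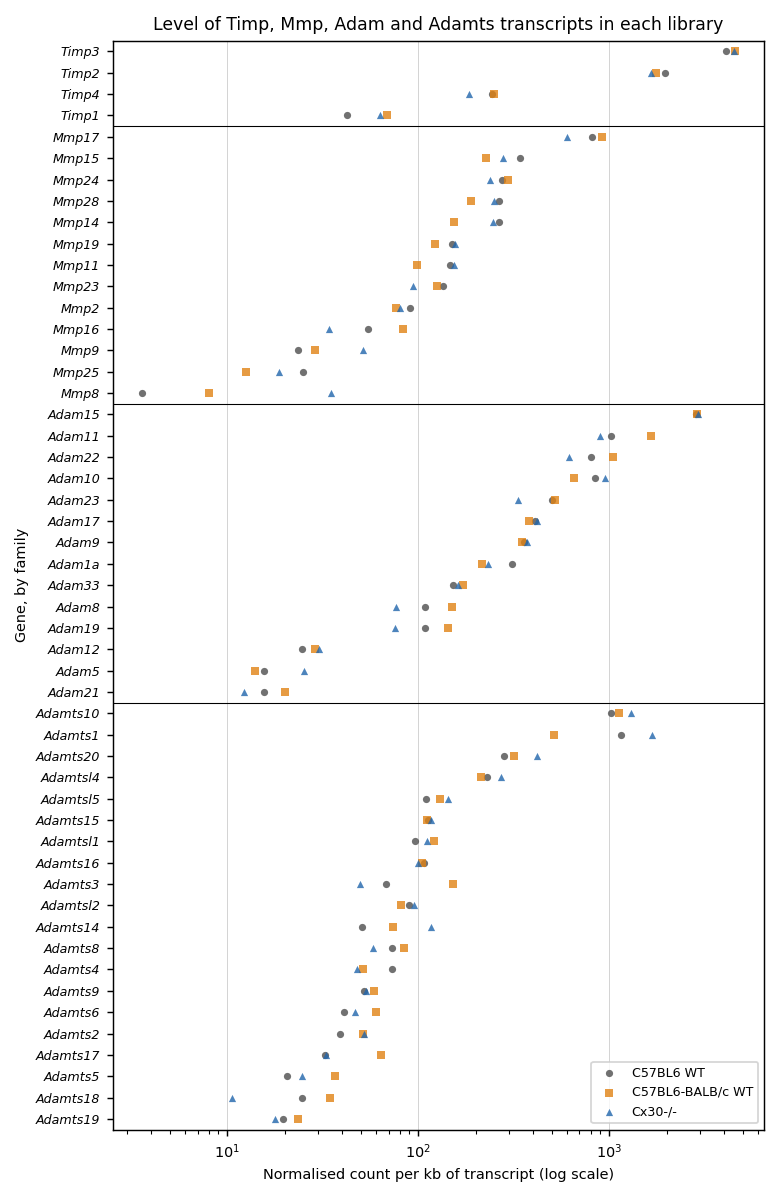
Level of the 51 genes that reached 50 normalized counts, as normalised count per kb of transcript on a log scale, grouped by family. Each point is 1 library (circle, C57BL6 WT; square, C57BL6-BALB/c WT; triangle, Cx30-/-). Timp3 lies highest, between 4075.9 and 4554.0 per kb, and Mmp8 spans the widest range of the Mmps.

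The first question was which of these genes differed between Cx30-/- vessels and the WT vessels. A gene was called different when its normalized counts differed at least 2-fold and reached 50 in at least 1 of the libraries compared. Against C57BL6 WT, 50 members could be assessed and 4 were called. Mmp8, Mmp9 and Adamts14 were higher in Cx30-/- and Adamts18 was lower, while 2.68% of all 14776 genes assessed were called, 1.42% as higher and 1.26% as lower. The call of Mmp9 was lost when the rows of a gene were summed, where its log2 ratio was 0.98. Against C57BL6-BALB/c WT, 5 of 51 were called: Mmp8 and Adamts1 as higher and Adamts3, Adamts18 and Mmp16 as lower. Here the background was larger, at 8.69% of 14891 genes, 3.96% higher and 4.73% lower. Mmp8 and Adamts18 were the members called in the same direction in both comparisons, that is 2 of 50, against 1.42% of all genes (0.742% higher and 0.681% lower). Both comparisons share the Cx30-/- library.

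The 2 WT libraries also differed from each other. Between them, 3.43% of 14791 genes were called, 1.41% as higher in C57BL6-BALB/c WT and 2.02% as lower. Of 49 members assessed 2 were called, Adamts3 as higher and Adamts1 as lower in C57BL6-BALB/c WT. These are also members that were called in the comparison of Cx30-/- with C57BL6-BALB/c WT and not in that with C57BL6 WT.

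Most members differed little between libraries. Their median log2 ratio was 0.03 against C57BL6 WT and -0.02 against C57BL6-BALB/c WT, where that of all genes was 0.0 in both. Single members ranged from -1.22 to 3.28 and from -1.71 to 2.13. By family the medians were -0.18 and 0.34 for Mmp, -0.05 and -0.1 for Timp, 0.03 and -0.03 for Adam, and 0.14 and -0.07 for Adamts genes. Counting any size of difference, 19 of 50 members were higher in Cx30-/- than in both WT libraries and 17 were lower than in both, against 37.1% and 36.6% of all genes. 

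At a lower ratio of 1.5, 8 members passed against C57BL6 WT, 4 higher and 4 lower, where 10.8% of all genes passed, 4.91% higher and 5.85% lower. Against C57BL6-BALB/c WT 18 passed, 7 higher and 11 lower, with 28.9% of all genes, 14.1% higher and 14.8% lower. Between the WT libraries 10 passed, 6 higher and 4 lower in C57BL6-BALB/c WT, with 15.4% of all genes, 7.34% higher and 8.04% lower. In the same direction in both comparisons of Cx30-/-, 7 members passed, with 7.52% of all genes. Mmp8, Mmp9, Adamts14 and Adam5 were higher (3.23% of all genes) and Adamts18, Mmp16 and Adam23 lower (4.28%).

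**Figure D2:**
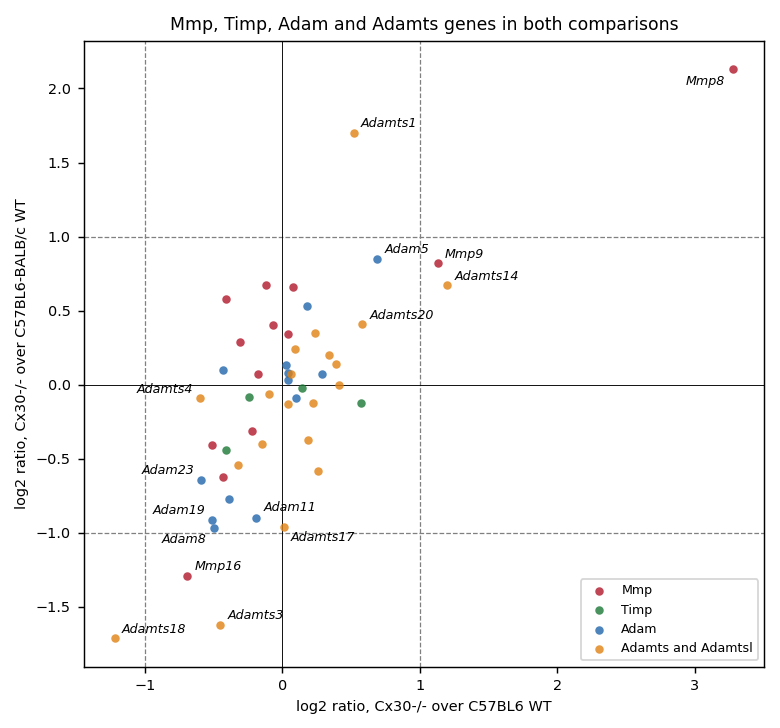
Log2 ratio of the Cx30-/- library over C57BL6 WT (horizontal axis) and over C57BL6-BALB/c WT (vertical axis) for the 50 genes assessed in both comparisons, 1 point per gene, coloured by family. Dashed lines mark a 2-fold ratio. Mmp8 lies past both lines at the upper right, Adamts18 past both at the lower left, and most genes lie near the origin.

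As a test across genes, the Cx30-/- library was set against the pair of WT libraries in edgeR (quasi-likelihood test, Benjamini-Hochberg adjustment). Its only measure of spread is the difference between the 2 WT libraries, background included. At an adjusted p under 0.05 it called 9 of 17576 genes (0.0512%) and 0 of 59 members. DESeq2 called 0 of the 19 members to which it gave an adjusted p. At an unadjusted p under 0.05, which 8.68% of all genes reached, edgeR had 9 members: Mmp8, Mmp9, Mmp16, Adam8, Adam19, Adamts1, Adamts3, Adamts14 and Adamts18. The lowest adjusted p of a member was 0.14, for Mmp8.

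In the values that follow, 3 levels are given in the order C57BL6 WT, C57BL6-BALB/c WT and Cx30-/-, and of a pair of log2 ratios of Cx30-/- the first is against C57BL6 WT and the second against C57BL6-BALB/c WT. Of the inhibitors, none was called in any comparison. Among all genes 2.68% were called against C57BL6 WT, 8.69% against C57BL6-BALB/c WT and 3.43% between the WT libraries. Timp3, which is held in the extracellular matrix and also blocks Adam17 and several Adamts enzymes, had a normalized count of 19246.5 in C57BL6 WT, of 21504.0 in C57BL6-BALB/c WT and of 21211.8 in Cx30-/-. Its log2 ratio to C57BL6 WT was 0.14 (95% interval 0.11 to 0.17), and that to C57BL6-BALB/c WT was -0.02 (-0.05 to 0.01), which became 0.04 with total-count scaling. Timp3 (chr10:86300372-86349506, GRCm38, plus strand) lies within Syn3, a neuronal synapsin gene on the opposite strand, and 1733 of its 8144 exonic bases overlap exons of Syn3. Since the libraries carried no strand, reads on those bases cannot be assigned to either gene. Syn3 had 11394.5, 11641.5 and 12075.6 normalized counts, each taken from its own row.

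Timp2, which inhibits Mmp2 and takes part in its activation, had 7269.5, 6516.3 and 6163.2 normalized counts in C57BL6 WT, C57BL6-BALB/c WT and Cx30-/-, lowest in Cx30-/-, with log2 ratios of -0.24 and -0.08. A shorter protein-coding row of Timp2 had 890.7, 776.6 and 851.8, at -0.06 and 0.13, so its order of libraries depended on the row. Timp4, the inhibitor found in heart and brain, had 346.7, 352.1 and 260.2. The WT libraries were alike for Timp4, and Cx30-/- was lower, with log2 ratios of -0.41 (-0.65 to -0.18) and -0.44 (-0.68 to -0.19). Timp4 lies opposite Syn2 and overlaps 90 bases of its exons. Syn2, also a neuronal gene, had 681.1, 1020.7 and 476.3 normalized counts, and its part in the Timp4 values was not tested. Timp1, an inducible secreted inhibitor encoded on the X chromosome, was the weakest of the 4 with 37.5, 60.5 and 55.6. Its interval included 0 in both comparisons, at 0.57 (-0.04 to 1.18) and -0.12 (-0.69 to 0.45), while the WT libraries differed by 0.69 (0.09 to 1.3).

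Mmp8, the collagenase stored in neutrophil granules, had the largest ratio of all members assessed. Its normalized count was 8.7 for C57BL6 WT, 19.4 for C57BL6-BALB/c WT and 85.0 for Cx30-/-, from 10, 18 and 81 raw counts. The Cx30-/- library was well above both WT libraries. The ratio was 9.73-fold against C57BL6 WT, a log2 ratio of 3.28 (2.33 to 4.4), and 4.37-fold against C57BL6-BALB/c WT, a log2 ratio of 2.13 (1.38 to 2.95). Between the WT libraries the log2 difference was 1.15, with an interval of -0.04 to 2.43. Reads covered 504 of the 2426 bases of the transcript in C57BL6 WT, 691 in C57BL6-BALB/c WT and 1774, or 73.1%, in Cx30-/-. Mmp8 met the minimum of 50 through the Cx30-/- library alone, and its adjusted p in the edgeR test was 0.14, or 0.041 with RLE factors and 0.000852 without the filter on low counts.

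Mmp8 (chr9:7558456-7568485, GRCm38, plus strand) lies in a cluster of 10 Mmp genes between positions 7272514 and 7699585 of chromosome 9, with Mmp13, Mmp12, Mmp1b, Mmp3, Mmp1a, Mmp10, Mmp27, Mmp20 and Mmp7. Mmp8 was the only gene of this cluster that reached 50 normalized counts in any library. The other collagenases and stromelysins of the cluster stayed at 10 raw counts or fewer per library, and 5 of the 10 genes had no read. The difference seen at Mmp8 was thus not detectable at its neighbours at this depth.

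Mmp9 and Mmp2 are the gelatinases, which degrade type IV collagen of basement membranes. Mmp9 (chr2:164940780-164955850, plus strand) had 74.2, 91.8 and 162.6 normalized counts in C57BL6 WT, C57BL6-BALB/c WT and Cx30-/-. It was highest in Cx30-/-, with log2 ratios of 1.13 (0.74 to 1.53) and 0.82 (0.43 to 1.22), while the WT libraries differed by 0.31. The second row of Mmp9, a short non-coding transcript, gave smaller log2 ratios of 0.58 and 0.6. The adjusted p of Mmp9 was 0.467. Mmp2, made mainly by mesenchymal cells, had 275.9, 232.2 and 243.4, and the Cx30-/- value lay between those of the WT libraries.

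Since Mmp8, Mmp9 and Mmp25 are also carried by neutrophils, the other neutrophil genes are set beside them. Of a list of 12 neutrophil markers, which includes Mmp25, 9 reached 50 normalized counts in each comparison with Cx30-/-. In each comparison 6 of the 9 were at least 2-fold higher in Cx30-/-, 5 of them in both, where 1.42%, 3.96% and 0.742% of all genes were. Camp and Cxcr2, counted there, passed the minimum through Cx30-/- alone, as Mmp8 did. The 9 genes had median log2 ratios of 1.41 against C57BL6 WT and 2.0 against C57BL6-BALB/c WT. The summed level of the list was 5049.8, 1362.0 and 7063.3, most of it from Lcn2, which other cells make as well. S100a8 had 121.4, 60.5 and 360.9, S100a9 201.7, 118.8 and 610.5, and Ngp, a granule protein, 102.2, 68.0 and 271.7. Camp had 23.6, 15.1 and 75.5, and Cxcr2 4.4, 24.8 and 56.6. All of these were highest in Cx30-/-, and Cxcr2 had the library order of Mmp8 and Mmp9. Csf3r differed less, at 154.6, 124.2 and 160.5. Ltf was highest in C57BL6-BALB/c WT, at 72.5, 219.3 and 152.1, and Mpo in C57BL6 WT, at 20.1, 5.4 and 4.2. Ly6g was at or near 0 in every library, with 0, 1.1 and 2.1 normalized counts, and Elane was low, at 4.4, 1.1 and 4.2. Mmp25, a membrane-type Mmp of leukocytes, had 83.8, 42.1 and 62.9, with Cx30-/- between the WT libraries. The part of these cells in the Mmp8 and Mmp9 values was not tested.

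The membrane-type Mmps stay on the cell surface and include Mmp14, the main activator of Mmp2. The 6 of them (Mmp14, Mmp15, Mmp16, Mmp17, Mmp24 and Mmp25) summed to 6559.6 normalized counts in C57BL6 WT, 6331.6 in C57BL6-BALB/c WT and 5194.9 in Cx30-/-. All 6 were lower in Cx30-/- than in C57BL6 WT, with a median log2 ratio of -0.36, but 3 were lower and 3 higher against C57BL6-BALB/c WT, with a median of -0.01. Mmp16 was the one called in the second comparison. It had 275.1, 418.0 and 171.0 normalized counts, lowest in Cx30-/-, with log2 ratios of -0.69 (-0.97 to -0.41) and -1.29 (-1.56 to -1.02), a WT difference of 0.6 and an adjusted p of 0.372.

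Mmp17, the glycolipid-anchored enzyme with the highest level among the Mmps, had 2833.6, 3218.7 and 2099.2 and was lowest in Cx30-/-, by log2 ratios of -0.43 and -0.62. Mmp24, known from neurons, had 1187.6, 1268.1 and 1021.8, with 637 of its 4683 exonic bases over the opposite gene BC029722. It was also lowest in Cx30-/-, at -0.22 and -0.31. Mmp15 had 1488.8, 985.1 and 1203.3, and Mmp14 had 690.7, 399.6 and 636.8, so that for both the Cx30-/- value lay between the WT values. Mmp14, Mmp15 and Mmp25 shared their order of libraries with the summed choroid plexus markers given above, and the part of that tissue in these values was not tested. Among the remaining Mmps, Mmp28, Mmp19, Mmp11 and Mmp23 had log2 ratios from -0.51 to 0.08 against C57BL6 WT and from -0.41 to 0.66 against C57BL6-BALB/c WT.

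**Figure D3:**
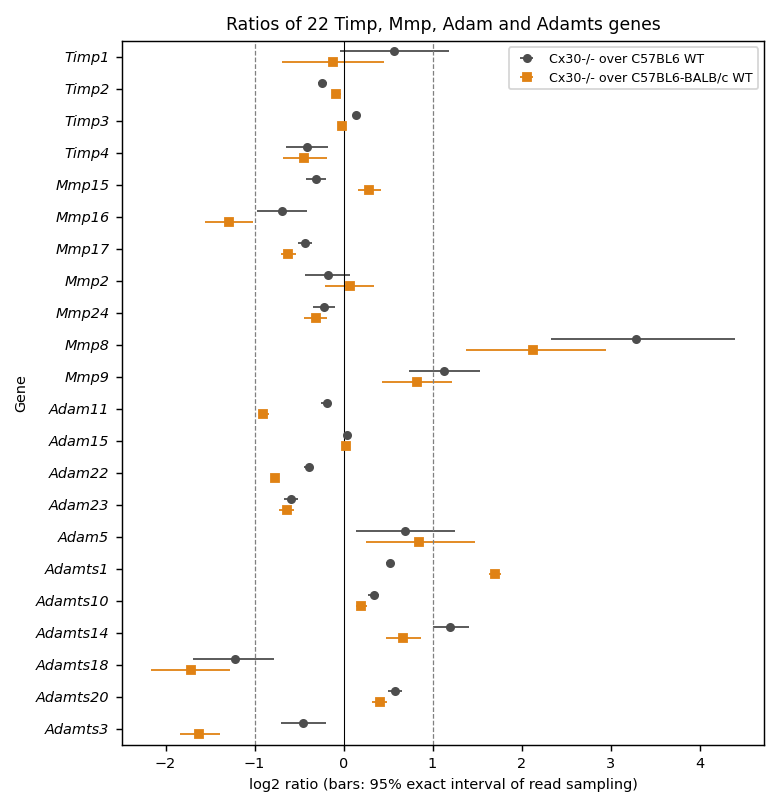
Log2 ratio of the Cx30-/- library over C57BL6 WT (circles) and over C57BL6-BALB/c WT (squares) for 22 genes, with 95% exact binomial intervals of read sampling as bars and dashed lines at 2-fold. The bars do not show variation between mice. The bars of Mmp8 are wide, 2.33 to 4.4 and 1.38 to 2.95, and stay to the right of the 2-fold line, and the circle and square of Adamts1 lie far apart.

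Among the Adams with a zinc site, none was called in any comparison, where 2.68%, 8.69% and 3.43% of all genes were, in the order given for the inhibitors. Adam15 had 8471.0, 8547.0 and 8712.4 normalized counts in C57BL6 WT, C57BL6-BALB/c WT and Cx30-/-, with log2 ratios of 0.04 and 0.03 whose intervals both reached 0. Of its 6145 exonic bases 1263 overlap an antisense gene, 4731419I09Rik, whose reads cannot be told apart here. Adam10, which cleaves Notch receptors and the prion and amyloid precursor proteins, had 3878.8, 3026.5 and 4382.9, at 0.18 (0.11 to 0.24) and 0.53 (0.46 to 0.6). Adam17, which releases tumour necrosis factor and ligands of the epidermal growth factor receptor, had 1825.9, 1706.6 and 1863.1, at 0.03 and 0.13. Over the 8 widely expressed catalytic Adams that passed the minimum, the median log2 ratio was 0.04 against C57BL6 WT and 0.05 against C57BL6-BALB/c WT, with 6 higher and 2 lower in the first comparison and 5 higher and 3 lower in the second.

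Adam8 and Adam19 were the members of that group that were lower in both comparisons. Adam8, an Adam of leukocytes and microglia, had 397.3, 549.8 and 281.1 normalized counts, with log2 ratios of -0.5 (-0.72 to -0.28) and -0.97 (-1.19 to -0.75). Adam19, which can process neuregulin, had 691.6, 913.8 and 485.7, at -0.51 (-0.68 to -0.34) and -0.91 (-1.08 to -0.75). Antisense genes overlap its exons by 587 and 480 bases. Both were lowest in Cx30-/- and highest in C57BL6-BALB/c WT, and neither reached a 2-fold ratio in the row used, which for Adam8 is a retained-intron transcript. Other rows did, at -1.21 for Adam8 and -1.35 for Adam19 against C57BL6-BALB/c WT. Against C57BL6 WT the rows of Adam8 ranged from -0.56 to 0.1. Adam8 and Adam19 are described here because of their unadjusted p values, a choice made after the values were seen.

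Adam11, Adam22 and Adam23 lack a working zinc site and act as adhesion and receptor proteins in the nervous system, where Adam22 and Adam23 bind the secreted protein Lgi1 at synapses. Adam11 had 5233.2, 8510.2 and 4574.9 normalized counts in the 3 libraries, Adam22 had 7288.7, 9523.4 and 5568.4, and Adam23 had 3215.2, 3332.2 and 2138.0. All 3 were lowest in Cx30-/-, with median log2 ratios of -0.39 against C57BL6 WT and -0.77 against C57BL6-BALB/c WT. For Adam23, the WT libraries were nearly equal, 0.05 apart on the log2 scale, and the ratios of Cx30-/- were -0.59 (-0.67 to -0.51) and -0.64 (-0.72 to -0.56), with an adjusted p of 0.637. Its size depended on the row, since the 8 rows of Adam23 ranged from -1.4 to -0.57 and from -1.5 to -0.61. The 3 genes together had 15737.0, 21365.8 and 12281.2.

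Neuron markers were also lowest in Cx30-/-. All 8 of the 8 listed neuron genes were lower in Cx30-/- than in either WT library, with median log2 ratios of -0.53 and -0.79, and their summed level was 40605.2 in C57BL6 WT, 50130.3 in C57BL6-BALB/c WT and 28177.5 in Cx30-/-. Of the 8, 6 were higher in C57BL6-BALB/c WT than in C57BL6 WT and 2, Syt1 and Tubb3, lower. None of the 8 was at 0. Their part in the values of Adam11, Adam22, Adam23, Mmp16, Mmp17, Mmp24 and Timp4 was not tested.

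Adam9, Adam12 and Adam33, further catalytic Adams, had log2 ratios from 0.04 to 0.29 against C57BL6 WT and from -0.09 to 0.08 against C57BL6-BALB/c WT. The Adams known mainly from testis were mostly near or at 0. Among them Adam5 had a ratio past 1.5 in both comparisons. This gene without a zinc site had 43.7, 38.9 and 70.3 normalized counts, so that it too passed the minimum through Cx30-/- alone, from 50, 36 and 67 raw counts, and was highest in Cx30-/- with wide intervals of 0.14 to 1.25 around 0.69 and of 0.25 to 1.48 around 0.85.

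Adamts1 was called against C57BL6-BALB/c WT but not against C57BL6 WT. This proteoglycanase, which cleaves versican and aggrecan and can inhibit angiogenesis, lies at chr16:85793827-85803113 on the minus strand. Its normalized count was 5674.1 for C57BL6 WT, 2510.2 for C57BL6-BALB/c WT and 8162.7 for Cx30-/-. The Cx30-/- library was highest, but the WT libraries differed more from each other than Cx30-/- did from C57BL6 WT. The log2 ratios were 0.52 (0.48 to 0.57) and 1.7 (1.63 to 1.77), with -1.18 (-1.25 to -1.11) between C57BL6-BALB/c WT and C57BL6 WT, and the adjusted p was 0.459. The summed endothelial markers had the same order. All 10 were higher in Cx30-/- than in either WT library, with median log2 ratios of 0.22 and 0.86, and they summed to 151532.9, 95370.9 and 184205.1. Their part in the Adamts1 values was not tested.

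Adamts5, the aggrecanase that neighbours Adamts1 on chromosome 16, did not have that order. It had 166.8, 298.1 and 199.3 normalized counts and was highest in C57BL6-BALB/c WT, at log2 ratios of Cx30-/- of 0.26 (-0.04 to 0.55) and -0.58 (-0.86 to -0.31). Adamts20, a versican-cleaving enzyme, had 1935.9, 2184.0 and 2892.2 and was highest in Cx30-/-, at 0.58 (0.5 to 0.66) and 0.41 (0.32 to 0.49). A weaker retained-intron row of Adamts20 had 77.7, 154.5 and 118.5, at 0.61 and -0.38, and was highest in C57BL6-BALB/c WT. The 7 proteoglycanases (Adamts1, Adamts4, Adamts5, Adamts8, Adamts9, Adamts15 and Adamts20) summed to 9444.7, 6654.6 and 12799.5, an order set by Adamts1, whereas their median log2 ratios were 0.06 and -0.09.

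The procollagen N-proteinases Adamts2, Adamts3 and Adamts14 differed in direction. Adamts14 (chr10:61197112-61273438, minus strand) had 264.6, 381.3 and 608.4 normalized counts. It was highest in Cx30-/-, with log2 ratios of 1.2 (1.0 to 1.41) and 0.67 (0.48 to 0.87), a WT difference of 0.53 and an adjusted p of 0.334. Adamts3 (chr5:89677087-89883334, minus strand), which also activates the lymphangiogenic factor Vegfc, had 310.0, 697.8 and 227.6. It was lowest in Cx30-/- and highest in C57BL6-BALB/c WT, with log2 ratios of -0.45 and -1.62 (-1.84 to -1.39), a WT difference of 1.17 (0.98 to 1.36) and an adjusted p of 0.35. Adamts2, the main skin N-proteinase, had 282.9, 375.9 and 376.6, with Cx30-/- level with C57BL6-BALB/c WT. A second row of Adamts2, a non-coding transcript, had 193.9, 240.9 and 136.4 and was lowest in Cx30-/-, at -0.51 and -0.82. The direction of Adamts2 thus depended on the row. Adamts14 and Adamts3, whose zinc sites are shown above, thus lay on opposite sides of the WT libraries.

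Adamts18 was the member that was lower in Cx30-/- by at least 2-fold in both comparisons. This orphan protease, implicated in vascular and eye development, lies at chr8:113697126-113848738 on the minus strand. Its normalized count was 139.7 for C57BL6 WT, 195.5 for C57BL6-BALB/c WT and 59.8 for Cx30-/-, from 160, 181 and 57 raw counts. The log2 ratios were -1.22 (-1.69 to -0.78) and -1.71 (-2.16 to -1.27), both larger in size than the 0.48 between the WT libraries. Reads covered 60.4% of its transcript in C57BL6 WT, 60.6% in C57BL6-BALB/c WT and 33.1% in Cx30-/-. All 3 libraries were above 50, unlike for Mmp8. The adjusted p was 0.262. The summed neuron markers had the same order, 40605.2, 50130.3 and 28177.5, with median log2 ratios of -0.53 and -0.79, and their part in the Adamts18 values was not tested.

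Adamts10, at 3833.4, 4215.7 and 4841.4 normalized counts, was the best expressed of the remaining Adamts genes and was highest in Cx30-/-, at log2 ratios of 0.34 (0.28 to 0.4) and 0.2 (0.14 to 0.26). Adamts17 had 191.2, 375.9 and 193.0, so that C57BL6-BALB/c WT stood apart and Cx30-/- lay within 0.01 of C57BL6 WT on the log2 scale. Adamts13, which cleaves von Willebrand factor and comes mainly from liver, had 10 counts or fewer in each library. The 4 Adamtsl genes, which lack the protease domain and bind microfibrils, were all higher in Cx30-/- than in C57BL6 WT, with a median log2 ratio of 0.23, and had a median of 0.19 against C57BL6-BALB/c WT, where 3 of 4 were higher. Their log2 ratios stayed between -0.12 and 0.39.

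The promoters of Mmp8 and Adamts18, the genes called in both comparisons, are shown from 250 bases before to 50 after the start (RefSeq, GRCm38.p6), Mmp8 at chr9:7558179-7558478 on the plus strand and Adamts18 at chr8:113848790-113849089 on the minus strand, written 5′ to 3′ along the gene. Capitals mark matches on either strand to motifs of textbook promoter factors. The letters searched for AP-1 were TGANTCA. A GC box was searched as GGGCGG. The TATA box was reduced to TATAA, and the last motif was CCAAT.
Mmp8: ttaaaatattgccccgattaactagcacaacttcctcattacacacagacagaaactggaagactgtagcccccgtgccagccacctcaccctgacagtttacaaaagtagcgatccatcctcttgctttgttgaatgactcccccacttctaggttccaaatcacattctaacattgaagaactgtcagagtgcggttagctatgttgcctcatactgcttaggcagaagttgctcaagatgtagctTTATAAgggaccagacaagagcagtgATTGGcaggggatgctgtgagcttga
Adamts18: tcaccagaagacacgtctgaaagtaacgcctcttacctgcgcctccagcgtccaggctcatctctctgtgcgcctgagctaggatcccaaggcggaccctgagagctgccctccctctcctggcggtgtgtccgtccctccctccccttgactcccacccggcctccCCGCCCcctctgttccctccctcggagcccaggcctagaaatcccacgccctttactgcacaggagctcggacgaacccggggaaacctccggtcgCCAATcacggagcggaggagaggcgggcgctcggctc
The Mmp8 promoter held a TATAA match, read on both strands of TTATAA, and a CCAAT match. It held neither the AP-1 nor the GC box letters. The Adamts18 promoter held a GC box and a CCAAT match and no TATAA. The Mmp8 TATAA match spans the RefSeq start used here, and the CCAAT match of each promoter lies after that start. RefSeq and GENCODE M21 place these starts differently. The Adamts18 stretch shown lies wholly before the start of the gene as placed above, at 113848738. Among all 27025 promoters of this length, 7.93% held the AP-1 letters, 35.9% the GC box, 25.5% TATAA and 37.9% CCAAT. Of the 52 members with a promoter in the table, 11 held the AP-1 letters, 24 the GC box, 22 TATAA and 19 CCAAT. The 11 with AP-1 letters were Mmp1a, Mmp1b, Mmp3, Mmp7, Mmp10, Mmp13, Mmp20, Adam1b, Adam20, Adam25 and Adam29, and each of them also held TATAA. None of the 11 reached 50 normalized counts in any library, where 51 of all 83 members, with or without a searched promoter, did. The 11 are not separate cases, since Mmp1a, Mmp1b, Mmp3, Mmp7, Mmp10, Mmp13 and Mmp20 all lie in the chromosome 9 cluster described above. Of all 29917 genes, 14776 reached 50 in C57BL6 WT or Cx30-/-. A link between these letters and the level of a gene was not tested.

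The partners of the proteases were then described by lists. Of 19 regulators, which activate, bind or clear metalloproteases, 16 passed the minimum. The median log2 ratios of the 16 were 0.0 and 0.13. None was called in both comparisons or against C57BL6 WT, where 1.42% and 2.68% of all genes were. Against C57BL6-BALB/c WT 3 were lower, where 4.73% of all genes were. They included, named after their values were seen, Papln (log2 ratio -1.15), which resembles the non-catalytic part of Adamts proteins, and the plasminogen activator Plau (-1.46). Papln had 158.9, 284.1 and 128.0 normalized counts and Plau had 220.9, 465.5 and 168.9, so in both C57BL6-BALB/c WT was the library that stood apart. Reck, a membrane inhibitor of Mmps, had 3898.9, 2972.5 and 4564.4. Thbs2 was not analysed here.

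Of 9 partners of Adam10 and Adam17, the iRhoms, Frmd8 and tetraspanins that bring these sheddases to the cell surface, 8 passed. None of the 8 was called in either comparison, where 2.68% and 8.69% of all genes were. Their median log2 ratios were -0.01 and 0.14. Of 20 substrates 19 passed. The median log2 ratios of the 19 were 0.09 and 0.24. None was called against C57BL6 WT, where 2.68% of all genes were. Against C57BL6-BALB/c WT 2 were lower, where 4.73% of all genes were. These were Vcan, the proteoglycan versican that Adamts1 and Adamts20 cleave, and Fbn2, a fibrillin, again named after their values were seen. Vcan had 614.7, 736.6 and 355.6 normalized counts, lowest in Cx30-/-, at -0.79 (-0.98 to -0.6) and -1.05 (-1.24 to -0.86). The proteoglycan genes Acan, Bcan and Ncan of the same list were also lower in both comparisons. Of the 19 substrates, 11 were higher and 8 lower in each comparison. The summed neuron markers given above had the library order of Vcan, and their part in its values was not tested. Fbn2 had 306.5, 472.0 and 214.0, at -0.52 and -1.14. The main basement membrane collagen genes were close to level, with log2 ratios of 0.06 and 0.24 for Col4a1 and of 0.16 and -0.08 for Col4a2.

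**Figure D4:**
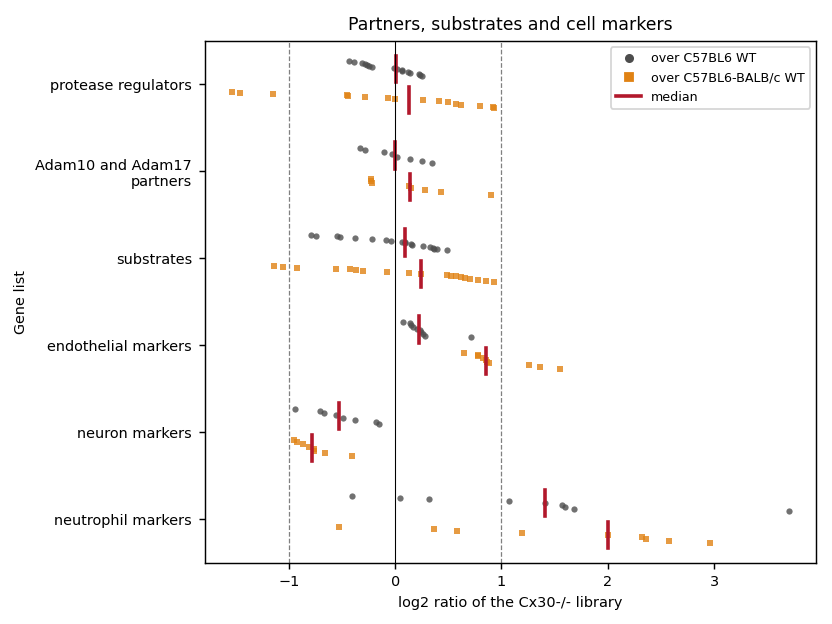
Log2 ratio of the Cx30-/- library over C57BL6 WT (circles) and over C57BL6-BALB/c WT (squares) for genes of 3 lists tied to the proteases and of 3 cell marker lists, 1 point per gene that passed the minimum, with red bars at the medians and dashed lines at 2-fold. Regulators, partners and substrates have medians between -0.01 and 0.24, endothelial markers lie above 0, neuron markers below 0, and neutrophil markers have medians of 1.41 and 2.0.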

How the data were processed

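RNA of isolated brain vessels was sequenced in 3 libraries. The WT groups were taken from the sample titles and the Cx30-/- group from the genotype label. The authors trimmed and filtered reads, aligned them with Bowtie and kept reads with a single match. For 82813 Ensembl transcripts they deposited raw counts of alignments over exons, not normalized, where a read on a shared exon counts for each transcript. The fraction column that the authors deposited (count over a library total) was not used here. Submitters' notes also name CASAVA 1.8.2 and mm10, but only 1091 of 69375 transcripts named by GENCODE M21 have the same start there, so the build of the deposited positions is unknown and gene coordinates are those of GENCODE M21 (GRCm38).

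Each gene was represented by its best covered row, by total count. Median-of-ratios size factors scaled the libraries. A call needed a ratio of at least 2 and 50 normalized counts in 1 or both libraries compared. Intervals are 95% Clopper-Pearson (scipy 1.17.1). edgeR 4.0.16 in R 4.3.3 tested Cx30-/- against both WT libraries (filterByExpr, TMM, quasi-likelihood, Benjamini-Hochberg), and DESeq2 1.42.0 was an alternative. The edgeR fit was tested on simulated counts. There both WT libraries were drawn from the same mean of each gene, so a difference in background between them was not simulated. The members and lists were chosen with earlier results of these data known. The genes named are Mmp8, Timp3, Adamts1, all Timps, Mmp2, Mmp9, every member called in any comparison of libraries or past 1.5-fold in both comparisons of Cx30-/-, and the 3 of each family with the highest level per kb. Others, named for their role or position, were added after the values were seen. 1 gene of the regulator list is not reported by name here.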

Additional observations from a re-analysis of the deposited data

How the results depend on the processing

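The count of members called against C57BL6 WT was 4, and 9 with no count minimum or 8 at a ratio of at least 1.5. With the rows of a gene summed it stayed at 4, but as 2 higher and 2 lower, and Mmp9 lost its call (log2 ratio 0.98 against 1.13). Against C57BL6-BALB/c WT it was 5, and 9 with no minimum or 18 at 1.5. In both comparisons it was 2, and 3 with rows summed (Mmp21 joined as lower), 6 with no minimum, 7 at 1.5 and 1 (Adamts18) with 50 required in every library, a setting that Mmp8 cannot pass because it is under 50 in the WT libraries. Between the WT libraries it was 2, and 4 with the rows of a gene summed, 5 with no minimum and 10 at 1.5. In edgeR 0 members were called, and 1 (Mmp8) without the filter on low counts (adjusted p 0.000852) or with RLE factors (adjusted p 0.041), against 0.14 with TMM. Over all genes edgeR called 9, 135 without the filter, 35 with RLE factors, and DESeq2 11. DESeq2 gave an adjusted p to 19 members, and the lowest was 0.59. The cause of these differences was not tested beyond the construction of each setting. Of 396 alternative values for single genes, 382 moved by less than their interval, 14 moved further, 0 reversed the direction of a called value, and the Mmp9 value named above was the 1 that lost a 2-fold ratio. The log2 ratio of Timp3 against C57BL6-BALB/c WT was -0.02 and became 0.04 with total counts. No paired analysis was possible because each group has 1 library. Leaving out a WT library leaves the comparisons of single libraries already given. Depth limits Mmp8 and Timp1, with 10 raw counts for Mmp8 in C57BL6 WT.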
